A study of Mus musculus with 6 samples.

Results

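The clustered protocadherins are 58 protein-coding genes in 3 tandem clusters on mouse chromosome 18: 14 in the alpha cluster, 22 in the beta cluster and 22 in the gamma cluster. They were selected by a rule on gene name and type among the 32067 rows of a deposited table of hippocampal RNA, and all 58 passed the filter on low counts that left 18629 features for testing. The samples were hippocampi of ovariectomised wild type C57BL/6J female mice aged 17 weeks, so every animal lacked ovarian estrogen. The OVX+RJ group (3 libraries) ate a diet with 1% royal jelly, a honeybee secretion fed to queen larvae, from 8 weeks of age, and the OVX group (3 libraries) ate a control diet over the same time. The sham-operated mice that the protocol also mentions are not analysed here, so any effect of ovariectomy itself cannot be read from these libraries.

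Clustered protocadherins are cadherin-related adhesion proteins of the neuronal surface that bind their own kind on the opposing cell. Each neuron transcribes its own small subset of isoforms by choice among alternative promoters, which depends on the insulator protein CTCF and on cohesin, and the resulting surface code lets the neurites of one neuron recognise and avoid each other. The C-type isoforms at the downstream end of the alpha and gamma clusters are an exception, as many neurons of a type express them together. A bulk hippocampus averages over a great many neurons and over dentate, CA and interneuron types. In such tissue, fewer cells expressing an isoform and less of its RNA per cell cannot be told apart.

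The clusters differ in what their genes share. In the GENCODE M21 gene models, on the earlier build GRCm38, each alpha transcript joins its own first exon to constant exons of 2860 bases and each gamma transcript to constant exons of up to 2119 bases, whereas all 22 beta genes have a single exon. The shared exons made up a median of 53.5% of an alpha transcript and 44.9% of a gamma transcript. Among beta genes they made up 9.67% of Pcdhb21 and 6.88% of Pcdhb22, whose ends overlap, and 0 of the rest. In windows of 100 bases, between 41.6% and 52.3% of an alpha transcript and between 49.96% and 59.3% of a gamma transcript occurred in no other member, against 92.3% to 100% of a beta transcript. How the reads of the constant exons were assigned to isoforms is not given in the sources used here. The table held no separate row for an alpha or gamma constant region, no member had a value that was not whole, and 0 pairs of members had identical counts in the 6 libraries. Alpha and gamma counts per isoform are therefore less certain than beta counts, while the sum over a cluster does not depend on how its shared reads were split among its members, provided that each read was counted once.

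Library totals lay between 34718611 and 58163796 counts, and levels are given as CPM, the count scaled to the library total over all rows. Markers of pan-neuronal, dentate granule, pyramidal and interneuron identity, 5 genes each, were all present in the 6 libraries. OVX+RJ 1 stood slightly apart from the others, with a mean Pearson correlation of 0.9826 to the other 5 libraries on the log2 CPM scale across genes, against 0.9855 to 0.9871 for the rest.

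The summed RNA of each cluster was nearly level across animals and diets. The alpha cluster summed to 193, 192 and 191 CPM in OVX+RJ 1, 2 and 3 and to 194, 197 and 179 CPM in OVX 1, 2 and 3. Its means were 192 ± 1.29 CPM in the OVX+RJ group and 190.05 ± 9.25 CPM in the OVX group (SD, n = 3 each), a log2 ratio of 0.014. The groups overlapped, and the highest library exceeded the lowest by 9.55%.

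The beta cluster was the steadiest, at 177, 171 and 171 CPM in OVX+RJ and 178, 174 and 177 CPM in OVX, so that the highest library exceeded the lowest by 4.26%. Its means were 173 ± 3.27 CPM in the OVX+RJ group and 176 ± 1.92 CPM in the OVX group, a log2 ratio of -0.029, and the groups overlapped. The gamma cluster summed to 709, 658 and 669.7 CPM in OVX+RJ and to 693, 669 and 640.3 CPM in OVX, again with overlap. Its means were 679 ± 26.9 CPM in the OVX+RJ group and 667 ± 26.2 CPM in the OVX group, a log2 ratio of 0.025. No p is given for these sums. Over all 58 members the sum was 1044 ± 31.1 CPM in the OVX+RJ group and 1034 ± 34.5 CPM in the OVX group.

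**Figure D1:**
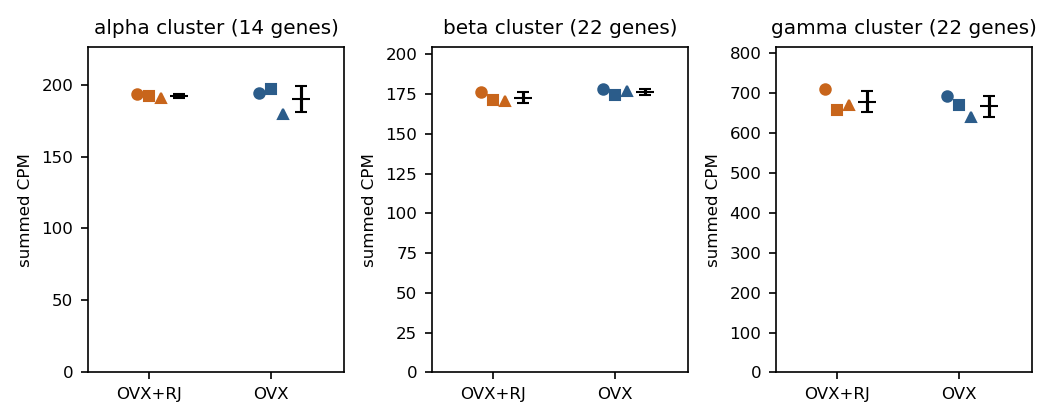
Summed CPM of the alpha, beta and gamma clusters in each library (vertical axis from 0; circles, squares and triangles are replicates 1, 2 and 3), OVX+RJ in orange and OVX in blue, with the group mean and SD in black. In each cluster the 2 groups overlap, and the means are 192 and 190.05 CPM for alpha, 173 and 176 CPM for beta and 679 and 667 CPM for gamma in OVX+RJ and OVX.

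The make-up of the clusters by subfamily was also similar between diets. The C-type pair Pcdhac1 and Pcdhac2 supplied 49.1%, 45.5% and 47.2% of alpha counts in OVX+RJ and 46.4%, 48.8% and 46.1% in OVX. The 3 gamma C genes supplied 42.8%, 38.5% and 42.3% of gamma counts in OVX+RJ and 41.2%, 39.9% and 40.7% in OVX. The 7 gamma B genes supplied 15.1%, 18.1% and 17.0% of gamma counts in OVX+RJ and 19.4%, 17.1% and 16.7% in OVX. In each case the values of the 2 groups interleaved.

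Per kilobase of transcript, 3 C-type genes had the highest levels of all members. Averaged over the 6 libraries, Pcdhgc5 stood at 34.1 CPM per kb, Pcdhgc3 at 21.1 CPM per kb and Pcdhac2 at 13.6 CPM per kb, and the ranges of these 3 over libraries did not overlap. Pcdhga11 followed at 10.3 CPM per kb. The median member was at 1.65 CPM per kb in the alpha cluster, 1.67 CPM per kb in the beta cluster and 4.34 CPM per kb in the gamma cluster. Pcdha8, at 0.174 CPM per kb, and Pcdhb1, at 0.105 CPM per kb, were the lowest. These first 4 places and last 2 places in the order were the same per kilobase of coding sequence, while others moved, such as Pcdhb14 from place 47 to 23. Both lengths include shared exons in the alpha and gamma clusters, and how their reads were assigned is not known. Levels per kilobase of these isoforms are therefore uncertain, and their comparison with beta genes is only approximate.

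**Figure D2:**
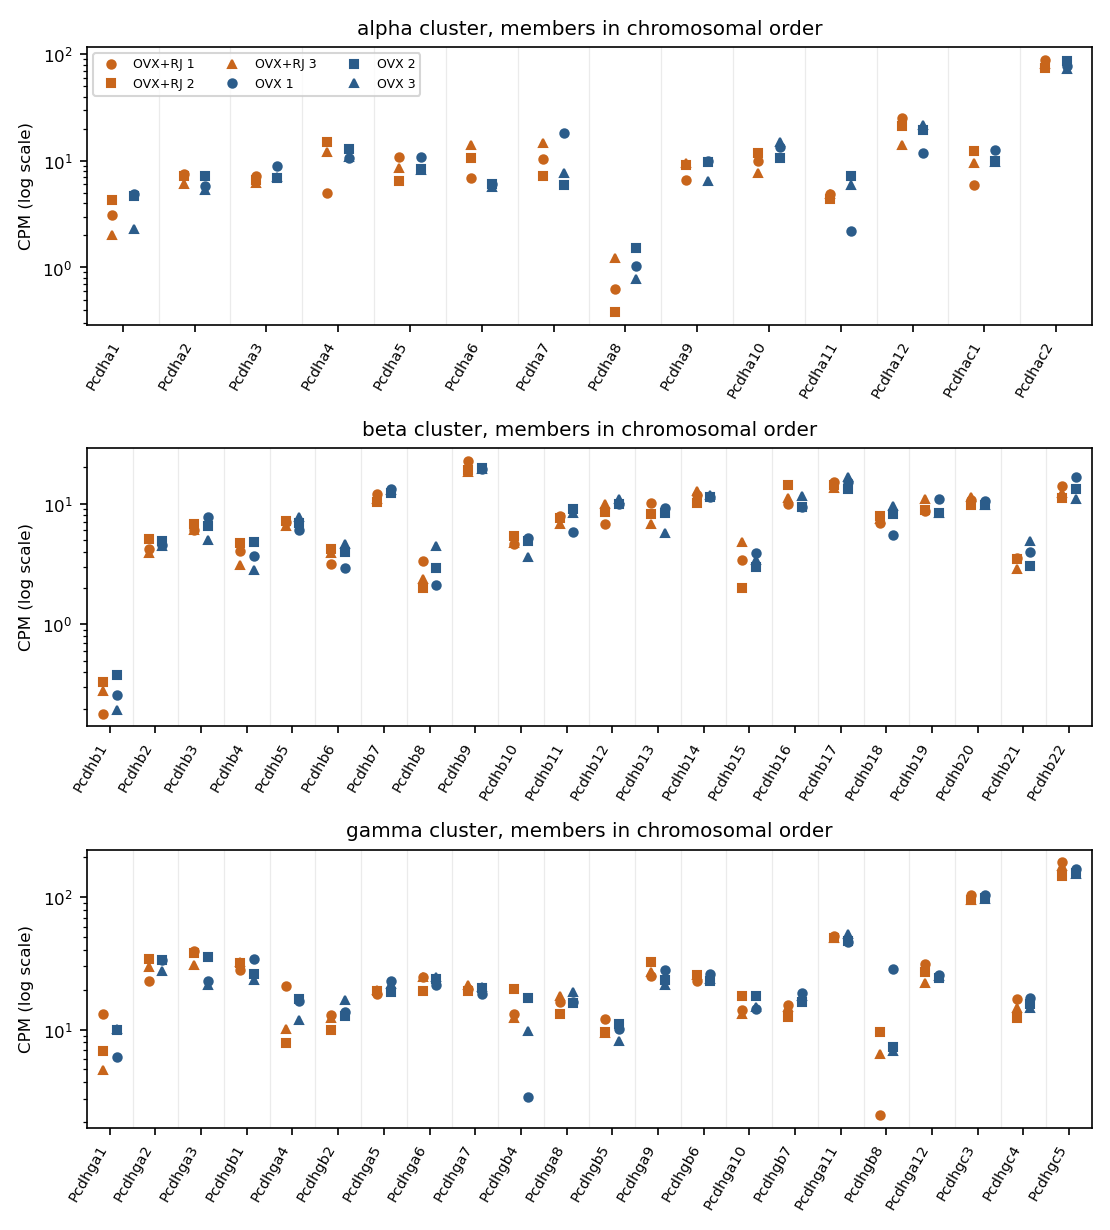
CPM of every member in each library on a log axis, in chromosomal order within the alpha, beta and gamma clusters; orange symbols are OVX+RJ, blue symbols are OVX, and shapes mark replicates 1 (circle), 2 (square) and 3 (triangle). Most members overlap between groups, and a few alpha and gamma isoforms have a single library far from the others, such as Pcdhgb8 and Pcdhgb4 in OVX 1.

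OVX+RJ was set against OVX to see what the royal jelly diet changes in ovariectomised mice, and no clustered protocadherin passed the test. By the edgeR quasi-likelihood test, adjusted over 18629 features by Benjamini-Hochberg, 0 of 58 members had an adjusted p under 0.05, against a background of 0% of all features. The lowest adjusted p among members was 0.986, shared by 34 of them. DESeq2, which called 12 of all features, and limma-voom also called 0 members. Their lowest adjusted p among members was 0.18 by DESeq2, for Pcdha6, and 0.965 by limma-voom. At an unadjusted p under 0.05 there were 5 members, 2 higher (Pcdha6 and Pcdhga3) and 3 lower (Pcdha10, Pcdhgb7 and Pcdhgb8) in OVX+RJ, against a background of 4.05% of all features, with 2.14% of all features higher and 1.91% lower. All 5 were alpha or gamma isoforms, and none of the 22 beta genes was among them, a difference between clusters that was not tested. Without OVX+RJ 1 the number was 8, and without OVX 3 it was 2.

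Most fold changes were small. The log2 fold change was above zero for 25 members and below zero for 33, where 49.6% of all features tested were above and 50.4% below, and the median was -0.035 against -0.0015 over all features. In 50 of 58 members the log2 fold change lay within 0.3 of zero, as it did in 15558 of the 18629 features tested. The 22 beta genes spanned -0.30 to 0.23, the 14 alpha genes -0.60 to 0.82 and the 22 gamma genes -1.21 to 0.59. The libraries of the groups did not overlap at 3 members, 1 higher (Pcdha6) and 2 lower (Pcdhb7 and Pcdhgb7), against a background of 10.5% of all features, 4.53% higher and 5.95% lower. With 1 library left out, which makes non-overlap more frequent, the count was between 7 and 12 (9 without OVX+RJ 1), against 18.8% to 22.2% of all features.

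**Figure D3:**
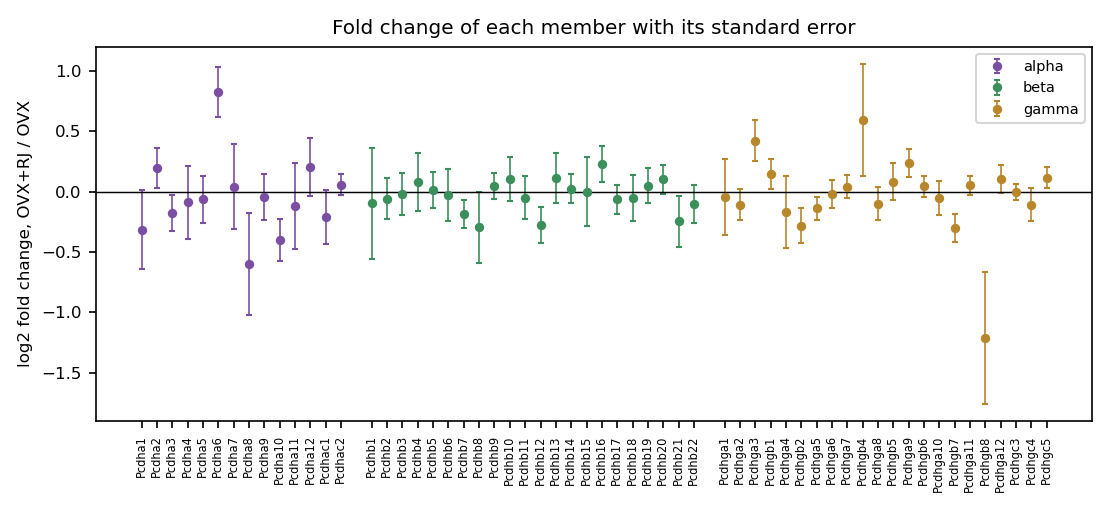
Log2 fold change of OVX+RJ over OVX for each of the 58 members in chromosomal order, with bars of 1 standard error; colours mark the alpha, beta and gamma clusters. The beta genes lie between -0.30 and 0.23, while Pcdha6 at 0.82 and Pcdhgb8 at -1.21 are the extremes among alpha and gamma isoforms.

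In the alpha cluster, Pcdha6 had the lowest p of any member. It stood at 6.94, 10.6 and 14.0 CPM in OVX+RJ 1, 2 and 3, against 6.11, 6.03 and 5.72 CPM in OVX 1, 2 and 3. The OVX libraries were close together and all below the OVX+RJ libraries, of which OVX+RJ 3 was the highest and OVX+RJ 1 only just above OVX. The log2 fold change was 0.82 (SE 0.21), at an unadjusted p of 0.00229 and 0.986 after adjustment. Leaving out OVX+RJ 1 gave 1.04 with an adjusted p of 0.0799, and leaving out OVX+RJ 3 gave 0.57. Of its immediate neighbours in the cluster, Pcdha5 had a log2 fold change of -0.064 (SE 0.20) and Pcdha7 one of 0.043 (SE 0.35). The value of Pcdha7 depended on OVX 1, its highest library at 18.2 CPM, and was 0.66 without that library. The annotation also places the antisense gene Gm37753, which has no counts of its own here, over a Pcdha6 exon. The libraries were made with a directional kit, but the strand setting of the counting is not given. Whether reads of Gm37753 entered the Pcdha6 count is therefore not known.

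Pcdha10 stood at 9.98, 11.8 and 7.65 CPM in OVX+RJ, against 13.5, 10.7 and 14.9 CPM in OVX. OVX+RJ 2 and OVX 2 crossed, and the log2 fold change of -0.40 (SE 0.18) had an adjusted p of 0.986. Pcdha8, the least abundant alpha isoform, stood at 0.624, 0.381 and 1.22 CPM in OVX+RJ and at 1.04, 1.53 and 0.785 CPM in OVX. Its log2 fold change was -0.60 (SE 0.43), again with overlapping groups and an adjusted p of 0.986.

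The C-type alpha genes were steady in the abundant member and variable in the other. Pcdhac2, which serotonergic axons need to space themselves in mouse brain, stood at 89.0, 74.9 and 80.5 CPM in OVX+RJ and at 77.5, 86.2 and 72.9 CPM in OVX, which gave a log2 fold change of 0.059 (SE 0.089). Pcdhac1 stood at 5.90, 12.4 and 9.45 CPM in OVX+RJ and at 12.6, 9.87 and 9.77 CPM in OVX. The low value of OVX+RJ 1 weighed on its log2 fold change, which was -0.21 (SE 0.22) with all libraries and 0.027 without that one. Pcdha12, the most abundant alpha isoform outside the C-type, stood at 25.2, 21.4 and 14.0 CPM in OVX+RJ and at 11.9, 19.5 and 21.7 CPM in OVX, so that each group held high and low libraries.

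The 3 most abundant beta genes were at similar levels on both diets. Pcdhb9 stood at 22.6, 18.8 and 18.3 CPM in OVX+RJ and at 19.4, 19.8 and 19.2 CPM in OVX. Pcdhb17 stood at 15.1, 14.2 and 13.4 CPM in OVX+RJ and at 15.2, 13.2 and 16.7 CPM in OVX, and Pcdhb22 at 14.1, 11.2 and 12.4 CPM in OVX+RJ and at 16.7, 13.2 and 10.9 CPM in OVX. The groups overlapped in each of these genes. Their log2 fold changes were 0.045 (SE 0.11), -0.063 (SE 0.12) and -0.099 (SE 0.16) in the order given.

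The beta genes with the lowest p were Pcdhb12, Pcdhb7 and Pcdhb16. Pcdhb12 stood at 6.76, 8.59 and 9.92 CPM in OVX+RJ and at 10.02, 9.90 and 10.9 CPM in OVX, which gave a log2 fold change of -0.28 (SE 0.15) at an unadjusted p of 0.0904. Pcdhb7 stood at 12.1, 10.4 and 11.0 CPM in OVX+RJ and at 13.3, 12.3 and 13.0 CPM in OVX. It is the beta gene whose groups did not overlap, with OVX+RJ 1 just below OVX 2, a log2 fold change of -0.19 (SE 0.12) and an unadjusted p of 0.137. Pcdhb16 stood at 10.003, 14.2 and 11.2 CPM in OVX+RJ and at 9.42, 9.42 and 11.5 CPM in OVX, which gave a log2 fold change of 0.23 (SE 0.15). Each of these 3 beta genes had an adjusted p of 0.986.

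In the gamma cluster the C-type genes Pcdhgc5 and Pcdhgc3 had the highest levels, and none of the 3 C-type genes passed the test. Pcdhgc3, reported to promote dendrite branching through Axin1 in mouse cortex, stood at 104, 95.5 and 96.1 CPM in OVX+RJ and at 104, 98.0 and 96.7 CPM in OVX. Its log2 fold change was -0.0027 (SE 0.067), and the highest of the 6 libraries was 1.09 times the lowest. Pcdhgc5, which binds GABA-A receptors at inhibitory synapses, stood at 183, 146 and 173 CPM in OVX+RJ and at 164, 153 and 149.6 CPM in OVX. OVX+RJ 1 and 3 were above all OVX libraries while OVX+RJ 2 was below them, and the log2 fold change was 0.12 (SE 0.086). Pcdhgc4, the gamma isoform that neurons need for survival in mouse development, stood at 16.9, 12.1 and 14.5 CPM in OVX+RJ and at 17.3, 15.5 and 14.5 CPM in OVX, which gave a log2 fold change of -0.11 (SE 0.14).

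Among gamma A isoforms, Pcdhga11 was the most abundant and stood at 51.0, 49.2 and 49.4 CPM in OVX+RJ and at 45.8, 46.8 and 52.4 CPM in OVX, which gave a log2 fold change of 0.055 (SE 0.079). Pcdhga3 stood at 39.0, 37.7 and 30.6 CPM in OVX+RJ and at 23.1, 35.5 and 21.7 CPM in OVX. OVX 1 and OVX 3 were below every OVX+RJ library, while OVX 2 lay among them. The log2 fold change was 0.42 (SE 0.17), at an unadjusted p of 0.0290 and 0.986 after adjustment, and with a library left out it lay between 0.30 (without OVX 3) and 0.69 (without OVX 2).

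Among gamma B isoforms, Pcdhgb7 stood at 15.2, 12.4 and 14.8 CPM in OVX+RJ and at 18.8, 16.2 and 17.8 CPM in OVX. Every OVX+RJ library was below every OVX library, with a log2 fold change of -0.30 (SE 0.12), an unadjusted p of 0.0255 and an adjusted p of 0.986. Pcdhgb8, which GENCODE M21 lists as a polymorphic pseudogene, had the widest range of all 58 members. It stood at 2.26, 9.55 and 6.48 CPM in OVX+RJ and at 28.6, 7.43 and 6.87 CPM in OVX, so that OVX 1 was 12.7 times OVX+RJ 1 while the other 4 libraries lay close together. Its log2 fold change of -1.21 (SE 0.55) rested on OVX 1 and was -0.23 without that library.

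Pcdhgb4, singled out after its values were seen, had the opposite extreme in the same animal. It stood at 13.1, 20.4 and 12.3 CPM in OVX+RJ and at 3.11, 17.2 and 9.77 CPM in OVX, with OVX 1 far below the rest. The log2 fold change was 0.59 (SE 0.47) and had an unadjusted p of 0.189, with 0.18 without OVX 1 and 1.24 without OVX 2, neither past the adjusted threshold. Added together, Pcdhgb4 and Pcdhgb8 came to 15.4, 29.9 and 18.8 CPM in OVX+RJ and to 31.7, 24.6 and 16.6 CPM in OVX. The sum varied 2.07-fold over the 6 libraries, where Pcdhgb4 alone varied 6.56-fold. As the pair was picked for opposite extremes in OVX 1, a narrower range of the sum is built into that choice. The other 5 gamma B genes together varied 1.153-fold. Both genes have annotated opposite-strand partners, Gm37165 for Pcdhgb4 and Gm26672 for Pcdhgb8, and Gm26672 also overlaps exons of Pcdhga10, Pcdhga11, Pcdhga12 and Pcdhgb7.

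Several alpha and gamma isoforms varied between animals on the same diet by more than other features of like abundance, and no beta gene varied to that extent. The spread was measured as the biological coefficient of variation (BCV), the spread beyond counting noise that edgeR estimates within groups, divided by the trend of all features at the same mean count. The BCV was above the trend for 28 of the 36 alpha and gamma isoforms and for 7 of the 22 beta genes, against 28.2% of all features tested. It was over 1.5 times the trend for 9 alpha and gamma isoforms and for 0 beta genes, against 2.57% of all features. The median ratio was 1.19 in the alpha cluster, 1.04 in the gamma cluster and 0.935 in the beta cluster, against 0.910 over all features. The difference between clusters was not tested.

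The 9 isoforms were Pcdhgb8 at 3.13 times the trend, Pcdhgb4 at 2.75, Pcdha7 at 2.16, Pcdhga4 at 2.04, Pcdha4 at 1.78, Pcdha12 at 1.77, Pcdhga1 at 1.76, Pcdha11 at 1.56 and Pcdhga3 at 1.55. In all 9, which were picked for their spread, OVX 1 or OVX+RJ 1 was the highest or the lowest of the 6 libraries. Over all 58 members, other libraries were often at an extreme too. There, OVX 1 was highest in 16 members and lowest in 10, and OVX+RJ 1 was highest in 12 and lowest in 8. OVX 3 was highest in 12 and lowest in 13, and OVX+RJ 2 was highest in 7 and lowest in 14. OVX 2 was highest in 6 and lowest in 4, and OVX+RJ 3 was highest in 5 and lowest in 9. Whether the 9 differ from the other members in the libraries at an extreme was not tested. Pcdha7 stood at 10.4, 7.26 and 14.6 CPM in OVX+RJ and at 18.2, 5.98 and 7.68 CPM in OVX, with OVX 1 highest. Pcdha4 stood at 5.01, 14.99 and 12.0 CPM in OVX+RJ and at 10.6, 12.8 and 10.8 CPM in OVX, with OVX+RJ 1 lowest. Pcdhga4 stood at 21.5, 7.90 and 10.1 CPM in OVX+RJ and at 16.3, 17.0 and 11.8 CPM in OVX, with OVX+RJ 1 highest. Pcdha11 was lowest in OVX 1, at 2.189 CPM, where the other 5 libraries lay between 4.34 and 7.26 CPM.

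**Figure D4:**
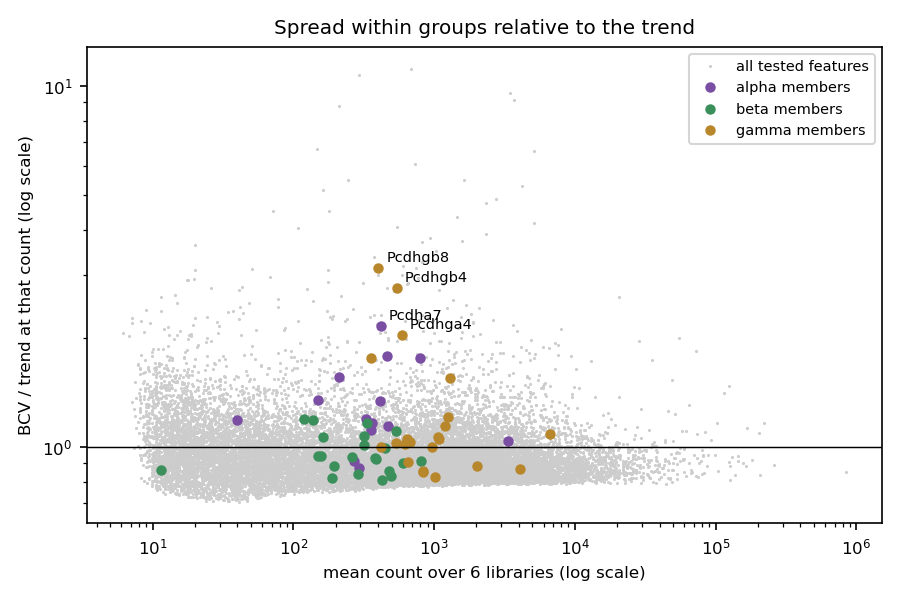
BCV of each feature divided by the trend at its mean count, against the mean count over 6 libraries, both on log axes; grey dots are all tested features and coloured points are the alpha, beta and gamma members. Alpha and gamma isoforms reach 3.13 times the trend (Pcdhgb8), while no beta gene is over 1.5 times.

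With each library left out in turn, between 21 and 26 of the 36 alpha and gamma isoforms were above the trend, and between 4 and 11 of the 22 beta genes were. Between 5 and 8 alpha and gamma isoforms were then over 1.5 times the trend, the fewest without OVX 1, and 0 beta genes were in any of these 6 fits. Pcdhgb8 and Pcdhgb4 were still at 1.91 and 1.57 times the trend without OVX 1. Markers of dentate granule cells also differed between libraries: all 5 were present in every library, with a BCV above the trend in each, and their summed level ranged from 299 to 465 CPM in OVX+RJ and from 346 to 491 CPM in OVX. All 5 granule markers had a negative log2 fold change, against 50.4% of all features. Of them 1, Lct, had an unadjusted p under 0.05, against 4.05% of all features. The 6 myelin markers, likewise all present and all above the trend, summed to between 3554 and 4774 CPM in OVX+RJ and to between 2949 and 4868 CPM in OVX. The 4 leptomeningeal markers summed to between 61.2 and 72.2 CPM in OVX+RJ and to between 50.3 and 85.6 CPM in OVX. The sum of the 8 choroid plexus markers varied most, between 28.3 and 57.0 CPM in OVX+RJ and between 27.7 and 39.0 CPM in OVX. Of that sum, Kl held between 18.1 and 25.1 CPM in each library. Ttr ran from 1.87 CPM in OVX 1 to 23.2 CPM in OVX+RJ 3, and Otx2 was at 0 in OVX 1. Of the 8 choroid plexus markers, 7 had a positive log2 fold change, against 49.6% of all features. An unadjusted p under 0.05 was found for 3, against 4.05% of all features, and 0 passed the adjusted threshold. The part of these markers in the spread of single isoforms or in the comparison of diets was not tested, nor was that of the way constant-exon reads were divided.

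The within-group SD of each cluster's sum was set beside the SD that would follow if the variances of its members simply added up. The ratio of these SDs was 0.538 for the alpha cluster (6.61 against 12.3 CPM), 0.481 for the beta cluster (2.68 against 5.58 CPM) and 1.1475 for the gamma cluster (26.5 against 23.1 CPM). Within the alpha cluster it was 0.339 for the 12 isoforms outside the C-type. Within the gamma cluster it was 0.904 for gamma A, 0.913 for gamma B and 1.30 for gamma C. These ratios rest on 3 libraries per group and are given as a description.

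**Figure D5:**
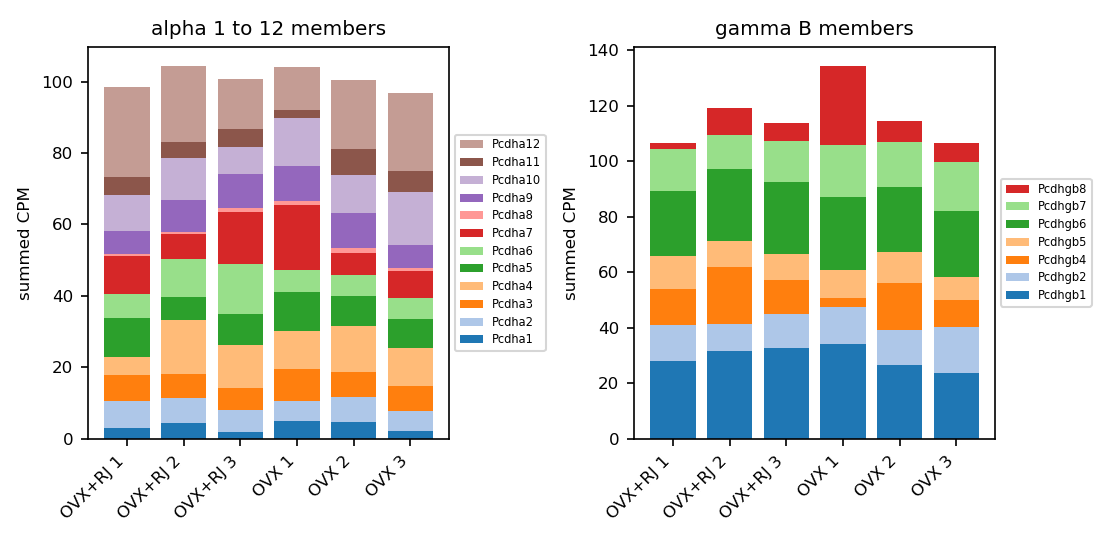
Summed CPM of the 12 alpha isoforms outside the C-type (left) and of the 7 gamma B isoforms (right) in each library, with a coloured segment per gene. The alpha columns have nearly the same height, at 98.4, 104 and 101 CPM in OVX+RJ and 104, 101 and 96.8 CPM in OVX, while their segments change; the tall OVX 1 column of gamma B, at 135 CPM, contains the large Pcdhgb8 segment.

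No gene among the regulators and partners of these clusters passed the test either. Of 24 genes that control clustered protocadherin promoters or methylation, 14 lay above and 10 below zero in log2 fold change (median 0.026). In either direction 0 passed, and 2 had an unadjusted p under 0.05, against 4.05% of all features. Of all features, 49.6% lay above and 50.4% below zero. Ctcf, the insulator protein of these promoters, was 77.6 ± 2.50 CPM in the OVX+RJ group and 80.4 ± 1.35 CPM in the OVX group. Rad21, a cohesin subunit, was 134 ± 4.60 CPM in the OVX+RJ group and 133 ± 4.26 CPM in the OVX group. Smchd1, a repressor of clustered protocadherin genes, was 46.3 ± 6.05 CPM in the OVX+RJ group and 49.1 ± 4.20 CPM in the OVX group, and Dnmt3b, which methylates their promoters in the early embryo, was 0.634 ± 0.0684 CPM in the OVX+RJ group and 0.862 ± 0.347 CPM in the OVX group (SD, n = 3 each). The lowest p values of this list belonged to Rest, a repressor of neuronal genes, and to Tet3, which oxidises methylated cytosine. Rest stood at 10.2, 8.18 and 8.40 CPM in OVX+RJ, all above the 6.91, 6.40 and 6.85 CPM of OVX, with an unadjusted p of 0.0142 and an adjusted p of 0.986. Tet3 stood at 68.7, 66.9 and 61.6 CPM in OVX+RJ and at 59.8, 57.5 and 58.7 CPM in OVX, with an unadjusted p of 0.0315.

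Of 12 protocadherins outside the clusters, 8 lay above and 4 below zero in log2 fold change (median 0.064). Of these, 0 passed and 2 had an unadjusted p under 0.05. The shares of all features were 49.6% above zero and 4.05% at an unadjusted p under 0.05. Pcdh7 was 83.9 ± 5.58 CPM in the OVX+RJ group and 73.3 ± 2.64 CPM in the OVX group, which gave a log2 fold change of 0.20 (SE 0.072) without overlap. Of all features, 4.53% were likewise higher in OVX+RJ without overlap. Pcdh11x had a log2 fold change of 0.34 (SE 0.15). Of 24 partners, cleaving enzymes and downstream proteins, such as Adam10, which sheds protocadherin ectodomains, 15 were positive and 9 negative, with a median of 0.025. Of these, 0 passed and 1 had an unadjusted p under 0.05, beside the same shares of all features. Nlgn1, a synaptic adhesion protein whose action gamma protocadherins inhibit, was 109 ± 8.61 CPM in the OVX+RJ group and 93.6 ± 0.490 CPM in the OVX group, which gave a log2 fold change of 0.24 (SE 0.073). Abi2, of the WAVE actin-regulating complex, had 0.12 (SE 0.055).

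A list of genes beside the clusters was measured to see whether the region moved as a whole. Slc25a2 of that list fell under the filter on low counts. Tmco6, Ndufa2, Ik, Wdr55 and Dnd1, also annotated nearby, were not in the list, so the region was covered only in part. Of 9 tested neighbours, 3 lay above and 6 below zero in log2 fold change (median -0.0076), where 50.4% of all features lay below. Of the 9, 0 passed and 1 had an unadjusted p under 0.05, against 4.05% of all features. Taf7, a transcription factor subunit gene between the beta and gamma clusters, was 6.93 ± 1.13 CPM in the OVX+RJ group and 7.24 ± 0.352 CPM in the OVX group. Zmat2, before the alpha cluster, and Diaph1, after the gamma cluster, both had a log2 fold change of -0.0076. The lowest p values were those of Fchsd1, at 7.37 ± 0.870 CPM in the OVX+RJ group and 10.6 ± 1.77 CPM in the OVX group with a log2 fold change of -0.51 (SE 0.15) and no overlap, and of Arap3, at -0.22 (SE 0.18). Of all features, 5.95% were lower in OVX+RJ without overlap, as Fchsd1 was.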

How the data were processed

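Poly(A) RNA libraries of 6 hippocampi were made with a directional kit, per the labels' protocols. HISAT2 2.2.1 and StringTie 2.2.1 are named with the build GRCm39, and bcl2fastq 2.19 and fastp 0.23.4 beside them, per the submitters' processing notes, which give no roles. The deposited table holds expected counts per gene symbol, not scaled between libraries, and they were rounded to whole numbers. For the annotation, strand setting and treatment of multi-mapped reads, nothing is given in the sources used here. The labels call each library a biological replicate.

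Features kept by filterByExpr were compared in R 4.3.3 with edgeR 4.0.16 (TMM scaling, glmQLFit, glmQLFTest, Benjamini-Hochberg adjustment, threshold 0.05). Standard errors are moderated ones from limma 3.58.1, fitted to log2 CPM (prior count 2). BCV ratios use edgeR's tagwise and trended dispersion, where tagwise values are drawn towards the trend. Alternatives were DESeq2 1.42.0, limma-voom, other scalings and filters, robust empirical Bayes, a replicate block and each library left out.

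The GENCODE M21 annotation (GRCm38) gave gene order, exon sharing and lengths for all 58 members through NCBI gene IDs, and no coordinates are given as the builds differ. The rule that picks the members reads gene names and types, not values, but the rule and the gene lists were chosen with earlier results of these data known. Named members are, per cluster, the 3 with the highest mean CPM, the 3 with the lowest p and the C-type genes, and per list the 2 with the lowest p plus Ctcf, Rad21, Smchd1 and Dnmt3b. Pcdhgb4 and the isoforms described for their spread were named after their values were seen, and the spread counts with a library left out were added then.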

Additional observations from a re-analysis of the deposited data

How the results depend on the processing

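No member was called under any of the 14 alternatives. Over all features, 0 were called in the main test, 12 by DESeq2, 3 with robust empirical Bayes, 1 with the replicate block and between 0 and 8 with a library left out. Members at an unadjusted p under 0.05 numbered 5 in the main test, 3 with DESeq2, limma-voom and robust empirical Bayes each, 4 with the replicate block and between 2 and 8 with a library left out. The replicate numbers gave little sign of pairing. The deviations of same-numbered libraries correlated at 0.046, -0.0024 and 0.0031 across genes, and only some libraries correlated best with their own number. Such correlations cannot settle whether the samples were paired by design, which the labels do not state. Log2 ratios of the cluster sums stayed between -0.026 and 0.039 for alpha, -0.044 and -0.020 for beta and -0.0079 and 0.052 for gamma with a library left out. With each member weighted alike on the log scale the differences were -0.042 for alpha and -0.032 for gamma, of the other sign to the sums. The sums give abundant members more weight. Pcdhac2 held 41.9% of alpha counts and Pcdhgc5 24.0% of gamma counts, with log2 fold changes of 0.059 and 0.12. By number, 5 alpha and 10 gamma members lay above zero and 9 alpha and 12 gamma members below. The part of single members in the change of sign was not tested. With a library left out, the beta genes with a BCV above the trend numbered between 4 and 11 and the alpha and gamma isoforms over 1.5 times the trend between 5 and 8. Members whose groups do not overlap numbered 3 of 58 (5.17%) in the main test, against 10.5% of all features. Without OVX+RJ 1 they numbered 9 of 58, against 20.8% of all features. The rise was not particular to that library. The number was between 7 (without OVX 3) and 12 (without OVX 2) with a library left out, against 18.8% to 22.2% of all features. Shared constant exons and 3 libraries per group limit what can be said of a single isoform.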

Other observations

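Several noncoding genes annotated opposite to the protocadherins had low counts. Gm26672, opposite gamma exons, had 141, 61 and 106 counts in OVX+RJ 1, 2 and 3 and 127, 83 and 62 counts in OVX 1, 2 and 3, before any scaling. Gm37446, opposite Pcdhb12, had 45, 33 and 25 counts in OVX+RJ and 73, 58 and 48 counts in OVX. Gm10545, opposite Pcdha11 and Pcdha12, had 23, 61 and 30 counts in OVX+RJ and 65, 36 and 26 counts in OVX. BC037039, opposite Pcdhgc3, had 18, 29 and 11 counts in OVX+RJ and 3, 21 and 5 counts in OVX. No comparison between groups is drawn from these counts.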
